A study of Mus musculus with 17 samples.

Results

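The regions described here carried acetylation of lysine 9 on histone H3 (H3K9ac) after retinoic acid (RA), in mouse embryonic stem cells with Sirt6 (WT) and in cells lacking it (Sirt6 KO). They were the union of the peaks called by ChIP-seq in the WT and the KO library, with peaks that overlapped by 1 bp or more merged into 1 region. This gave 3472 regions, of 6400 in the union of the 8 acetylation lists of the series. Both lines came from the 129 strain and were kept on irradiated embryonic fibroblasts with LIF, a factor that holds stem cells undifferentiated. Feeder cells were removed by letting them settle on plastic. For differentiation the cells went into medium without LIF, then received all-trans RA from a 0.01 M stock diluted 10000-fold for 2 days, and were harvested on the day after the RA was taken off. Each genotype is represented by 1 library. The labels do not say whether each genotype is 1 clone, and a difference between these libraries cannot be told apart from a difference between cultures. The other lists used for comparison were untreated H3K9ac, acetylation of lysine 56 (H3K56ac) untreated and after RA, each in both genotypes, and Sirt6 binding in untreated WT cells.

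H3K9ac is a mark of active promoters and enhancers, laid down by acetyltransferases and removed by deacetylases. Sirt6 is a NAD-dependent deacetylase of the sirtuin family that acts on H3K9ac and H3K56ac. RA binds nuclear receptors that turn on developmental genes while the pluripotency programme is shut down, and it is widely used to start differentiation of embryonic stem cells. The comparison addresses whether cells without Sirt6 carry more H3K9ac, and where, once they have been pushed to differentiate. The peak lists hold positions on mouse build mm9 and no gene names. Genes, promoters, cell type markers and the state of the Sirt6 gene itself were not analysed here, so the regions are named by position.

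The libraries were of similar size. WT held 8525176 tags after filtering and KO 10250030, or 1.20 times as many, and the 8 acetylation libraries ranged from 5782181 to 10250030. The fragment length d to which tags were extended was 198 bp in WT and 204 bp in KO. The level of a region is given as its summit pileup, the number of extended tags that cover the highest point, either as tags or in rpm, tags per 1000000 filtered tags. A single tag was worth 0.117 rpm in WT and 0.0976 in KO. With 1 library per genotype no difference has a replicate check and none is tested. The 95% intervals below cover counting error only, and regions are not replicates of a genotype.

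Most H3K9ac regions were called in both genotypes. Of the 3472 regions, 2282 (65.7%; Wilson 95% interval 64.1 to 67.3) were shared. A further 859 were called in KO only, or 24.7% of all regions (23.3 to 26.2), and 331 in WT only, or 9.53% (8.60 to 10.6). Of the regions with a WT call, 87.3% (86.0 to 88.6) also had a KO call, while 72.7% (71.1 to 74.2) of those with a KO call also had a WT call. There were thus 2.60 KO-only regions for each WT-only region (exact interval 2.28 to 2.95). That ratio was 1.01 (0.889 to 1.15), with 466 against 460 regions, when the KO list was shortened to the length of the WT list by its −log10 q. Lists of equal length leave nearly equal numbers of unshared regions by construction, so this value does not bear on the excess. The ratio was 0.935 (0.794 to 1.10), with 289 against 309 regions, among peaks of at least 2 rpm in both lists, a limit chosen after the data were seen. The excess of KO-only calls was thus present in the deposited lists, where KO had more tags and more peaks (3147 against 2626), and remained at a −log10 q of at least 10 (ratio 1.62; 1.41 to 1.86). It was absent only when peaks under 2 rpm were dropped from both lists. With either limit, shared regions with 1 of their 2 peaks under it then counted as called in 1 genotype. At the −log10 q limit shared regions went from 2282 to 2052, while the number of WT-only regions stayed at 331. Against the full lists, 144 of 1951 KO regions of at least 2 rpm (7.38%; 6.30 to 8.63) had no WT call. Of 1971 such WT regions, 88 (4.46%; 3.64 to 5.47) had no KO call. The part of depth in the excess was not tested.

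Regions called in 1 genotype were weak in that genotype. KO-only and WT-only regions had the same median pileup of 16 tags, with quartiles of 15 and 19 in KO and 15 and 18 in WT. In the larger KO library those 16 tags made 1.56 rpm, against 1.88 in WT. Shared regions had a median of 28 tags (3.28 rpm) in WT and 31 tags (3.02 rpm) in KO. The authors' fold enrichment over the local background had a median of 7.56 in KO-only and 8.40 in WT-only regions, against 12.6 and 12.8 for the WT and KO peaks of shared regions. The highest fold was 17.3 among KO-only and 13.8 among WT-only regions. The lowest −log10 q was 3.62 and 3.97. Calls in 1 genotype thus filled the lower end of the range of levels in both lists.

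**Figure D1:**
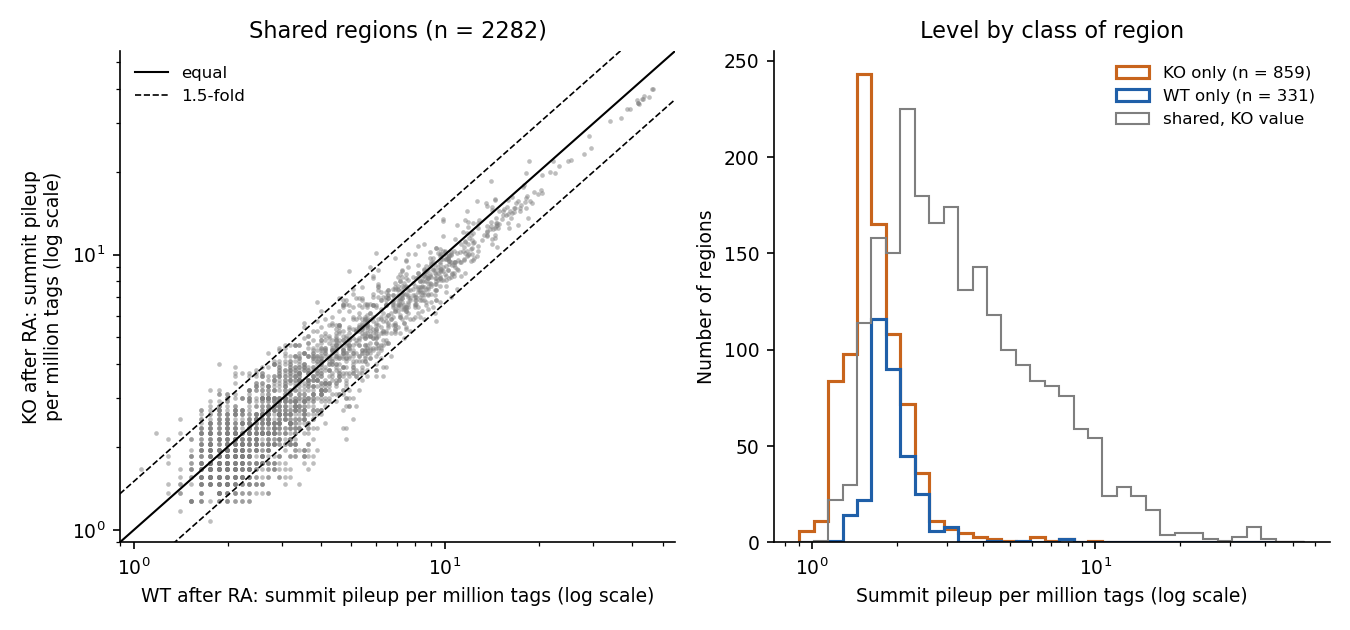
Left, summit pileup in rpm in the KO library (vertical, log scale) against the WT library (horizontal, log scale) for the 2282 shared regions; 49 points lie on or above the upper dashed line of 1.5-fold and 139 on or below the lower. Right, number of regions by summit pileup in rpm (log scale) for the 859 KO-only regions, the 331 WT-only regions and the KO values of the shared regions; both single-genotype classes sit at the low end, with medians of 1.56 and 1.88.

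The share of calls found in 1 genotype only was far lower at high levels than at low ones in both lists. Among KO regions under 1.5 rpm, 346 of 449 (77.1%) were not called in WT. The share was 43.0% between 1.75 and 2 rpm (174 of 405) and 5.73% between 2.5 and 3 (16 of 279). From 6 rpm upward it was 1.27% (6 of 471). WT regions followed the same course at lower values, with 48.4% under 1.5 rpm (15 of 31), 34.8% between 1.75 and 2 (165 of 474), 4.03% between 2.5 and 3 (12 of 298) and 0.410% from 6 upward (2 of 488). WT had few peaks under 1.5 rpm, the range in which 346 of the 859 KO-only regions lay. At 2.5 rpm or more, 39 of 1493 KO regions (2.61%; 1.92 to 3.55) and 22 of 1576 WT regions (1.40%) were called in that genotype alone.

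**Figure D2:**
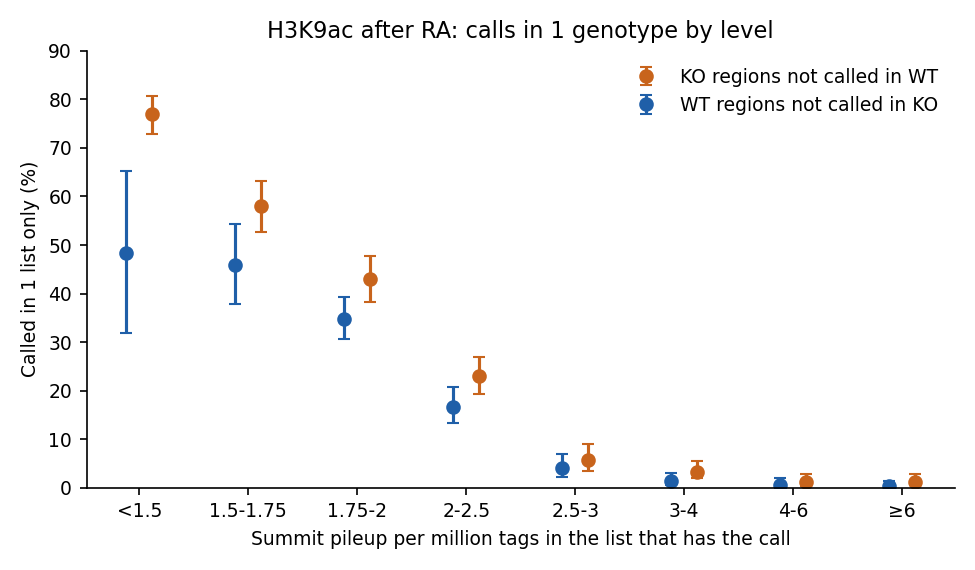
Share of regions called in 1 genotype only (vertical, %), by summit pileup in rpm in the list that holds the call (horizontal, unequal bins), for KO regions and WT regions; bars are Wilson 95% intervals, counting error only. The KO share falls from 77.1% in the lowest bin to 1.27% in the highest, and the WT share from 48.4% to 0.410%.

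The few regions of highest pileup among those called in 1 genotype lay mostly on a raised local background. The local background that the peak caller used at each peak was recovered from pileup and fold enrichment, and is given as a multiple of the genome-wide expectation. Of the 10 KO-only regions with at least 4 rpm, picked out after their values were seen, 9 had a background of 8 or more times that expectation (8.09 to 31.4) and a fold of only 2.30 to 4.58. Of these 10, 4 lay on unplaced contigs, and the highest pileup, 97 tags, was at chr17:39980773-39981663, where the background was 31.4 times the expectation. All 4 WT-only regions at that level had backgrounds of 8 or more times the expectation (up to 29.5) and folds of 2.39 to 3.35. Over all KO-only regions the background was at most 2% above the expectation in 62.0%, and over all WT-only regions in 57.4%, against 23.3% (WT peaks) and 28.3% (KO peaks) of shared regions. The typical single-genotype region was thus a weak peak over a background near the genome-wide expectation. At somewhat lower levels a raised background was less common, with 6 of the 10 WT-only regions of at least 3 rpm, also picked out after their values were seen, at 1.06 to 2.66 times the expectation.

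The exception among the 10 was chr3:14983581-14983918, which led the KO-only class by fold (17.3). It had 44 tags (4.29 rpm) over a background of 1.43 in KO and overlapped a Sirt6 peak of untreated WT cells. H3K9ac in untreated KO cells was 7.62 rpm there, and untreated WT cells had no call. H3K56ac after RA was called in both genotypes, at 6.67 rpm in WT and 11.3 in KO. WT cells thus had an acetylation call at this place, in the other mark.

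The next KO-only regions by fold were similar in that respect. At chr7:54767299-54767598 (34 tags, fold 16.3), also at a Sirt6 peak, RA-treated H3K56ac was 2.12 rpm in WT and 3.95 in KO. At chrX:159935919-159936208 (29 tags, fold 14.1) the pair of values was 3.25 and 6.43, and at chr17:70497645-70497915 (31 tags, fold 14.1) it was 2.44 and 5.70. In H3K56ac after RA the KO to WT ratio at the first 4 regions was thus 1.69, 1.87, 1.98 and 2.34, all higher in KO. The fifth, chr1:132073636-132073885 (32 tags), had an H3K56ac call after RA in KO alone, at 1.90 rpm. In untreated cells, H3K56ac was called there in WT alone, at 2.05 rpm. The regions were chosen for a KO call in H3K9ac, and the H3K56ac libraries had no part in that choice.

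The WT-only regions of highest fold held fewer tags, in the smaller library, and in rpm overlapped the KO-only ones (2.82 to 3.17 against 2.83 to 4.29). These WT-only regions were called in 3 to 5 of the 8 acetylation lists, against 5 to 7 for the KO-only ones. They were chrX:79582364-79582599 (26 tags, fold 13.8), chr10:13843178-13843426 (27 tags, 13.8), chr6:136707337-136707600 (26 tags, 13.4), chrX:86982621-86982857 (24 tags, 13.1) and chr16:12282415-12282642 (24 tags, 12.3). All 5 had a call in untreated WT H3K9ac, at 2.72, 2.85, 2.72, 2.72 and 3.24 rpm in that order. None overlapped a Sirt6 peak. After RA, H3K56ac was called at only 1 of them, the one on chromosome 10, and in WT alone (2.60 rpm).

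Many single-genotype regions had calls in other libraries of either genotype. Of the KO-only regions, 298 (34.7%) were in no other acetylation list, and of the WT-only regions 129 (39.0%). Another WT list held a call at 428 KO-only regions (49.8%), more than the 356 (41.4%) with a call in another KO list. Another KO list held a call at 83 WT-only regions (25.1%), and another WT list at 178 (53.8%). Shared regions had such calls far more often, at 93.5% in another WT list and 84.0% in another KO list, so the WT lists held more calls there too. A missing WT call in H3K9ac after RA thus often went with a call in another WT library. A missing KO call went with one in another KO library less often. The nearest peak of the other list lay within 1000 bp of 14 KO-only regions (1.63%) and 10 WT-only regions (3.02%). A shifted peak below the call limit would not be seen, and shifts as a source of missing calls were not tested.

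H3K56ac after RA was called at most shared H3K9ac regions and at a minority of those found in 1 genotype. At KO-only regions it was called in KO alone at 119 (13.9%), in WT alone at 68 (7.92%), in both at 97 (11.3%) and in neither at 575 (66.9%). At shared regions it was called in both genotypes at 1489 (65.3%) and in neither at 397 (17.4%). Among KO-only regions below 1.75 rpm, H3K56ac was called at 10.5% in the WT list and 17.9% in the KO list, and at 2.5 rpm or more at 48.7% and 51.3%. At shared regions of that level the shares were 91.3% and 89.5%. The higher share in the KO list at weak regions was not particular to KO-only regions. Shared regions below 1.75 rpm in KO had H3K56ac calls at 26.2% in the WT list and 34.4% in the KO list. WT-only regions also had more H3K56ac calls in KO alone (28) than in WT alone (20).

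KO-only regions at Sirt6 peaks of untreated WT cells had other values than the remaining ones. A Sirt6 peak lay at 97 of the 859 KO-only regions, at 179 of the 2282 shared ones and at 5 of the 331 WT-only ones. The 97 were weaker than the other 762, with a median of 1.46 against 1.66 rpm and a median fold of 5.84 against 8.01, over a background of 1.37 against 1.00. In untreated cells, 50 of the 97 (51.5%) had an H3K9ac call in KO and 5 (5.15%) in WT. At the other 762 the order was the opposite, with 210 (27.6%) called in untreated KO and 248 (32.5%) in untreated WT. Of the 5 WT-only regions at a Sirt6 peak, 4 had an untreated H3K9ac call in KO and 0 in WT. The order at Sirt6 peaks was thus not particular to KO-only regions. H3K56ac in untreated cells was called at 30.9% of the 97 in KO and 21.6% in WT, and at 15.9% and 29.8% of the other 762. The untreated calls come from separate libraries, which had no part in choosing the regions.

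By level, the overlap with Sirt6 peaks among KO-only regions was highest at both ends. It was 16.2% under 1.5 rpm (56 of 346; 12.7 to 20.4), 2.87% between 1.75 and 2 (5 of 174) and 25.6% at 2.5 or more (10 of 39; 14.6 to 41.1). Shared regions under 1.5 rpm held 0 of 103 (upper limit of the Wilson interval 3.60%), and those at 2.5 or more 168 of 1454 (11.6%; 10.0 to 13.3). Of the 97 regions, 56 thus lay in a range of levels in which WT had few calls. Of the 97, only 4 lay on a background of 8 or more times the expectation.

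In the shared regions, the H3K9ac level was slightly lower in KO. The KO to WT ratio of summit pileup in rpm had a median of 0.929, quartiles of 0.813 and 1.08, and a range from 0.430 to 2.13. It was above 1 in 830 of 2282 regions (36.4%). At least 1.5-fold higher in KO were 49 regions, or 2.15%, and at least 1.5-fold lower 139, or 6.09%. When the ratios were scaled so that their median was 1, these shares became 4.73% and 3.64%, so the excess of lower regions depended on the scaling and changed sides. Without that scaling it also differed with level. Under 2 rpm over both libraries 4 regions were higher and 40 lower, between 2 and 3 rpm 24 and 68, and between 6 and 10 rpm 3 and 2. Weak regions enter this comparison only with a call in both lists, and the part of that selection in the counts was not tested. At the 2-fold limit 1 region was higher and 10 were lower. The authors' fold enrichment had a KO to WT median of 1.00 (quartiles 0.902 and 1.12), and 0.943 for pileup over the recovered background without the 1 that the peak caller adds to both. Across the shared regions log2 pileup correlated between genotypes with Pearson's r of 0.936 and Spearman's rho of 0.895, over regions that share each library's depth and selection by a call in both.

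The ratio varied with the level. It was lowest at the weak and strong ends, with medians of 0.884 under 2 rpm (384 regions), 0.977 between 3 and 4 (370 regions), 0.924 between 6 and 10 (322 regions) and 0.860 between 20 and 50 (24 regions). The weak end lies near the call limit, and there equal tag counts give a ratio below 1. With 16 tags in each library the level is 1.88 rpm in WT and 1.56 in KO, a ratio of 0.832. The part of the call limit and of depth in the median under 2 rpm was not tested. The strong end has a ceiling, because the peak caller kept 1 tag per position, per the file headers. The highest pileup in each list was exactly 2 times d, or 396 tags in WT and 408 in KO. That is the value for 1 tag per position on each strand, which the headers do not spell out. At that ceiling the ratio in rpm can only be 0.857, whatever the acetylation. The 6 regions above 90% of the ceiling in both lists had a median of 0.856. Levels near the ceiling cannot be compared between the genotypes. The median was already 0.896 between 10 and 20 rpm (134 regions), and the part of the ceiling in the lower ratios below it was not tested.

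**Figure D3:**
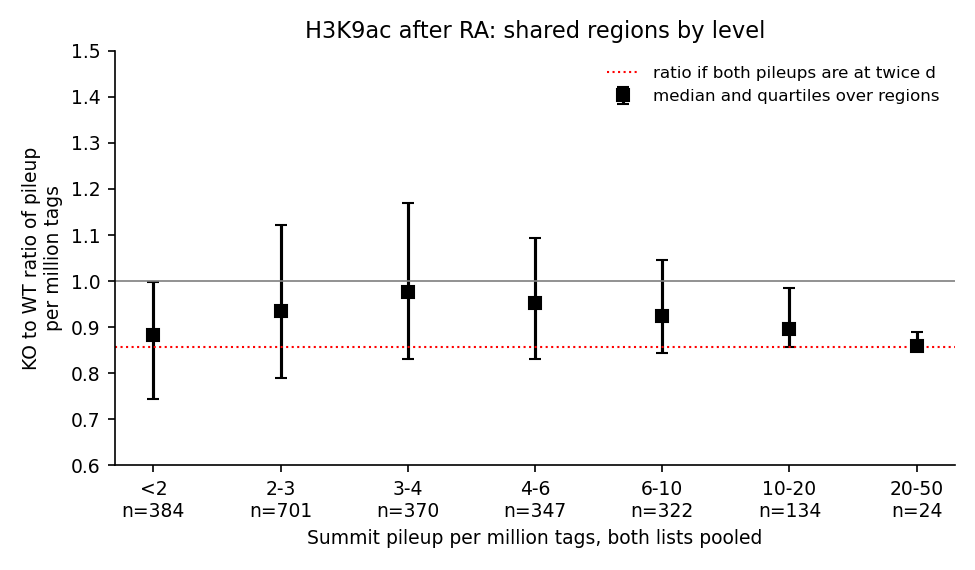
KO to WT ratio of summit pileup in rpm (vertical) in shared regions by level (horizontal, unequal bins of the level in rpm over both libraries, with the number of regions). Squares are medians and bars quartiles over regions, not errors of the median; the median is 0.977 between 3 and 4 rpm and 0.860 between 20 and 50, beside the dotted line at 0.857 where both pileups are at 2 times d.

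The shared regions of highest fold were picked by their mean fold over both lists. They had to be high in both, so they cannot show how close the genotypes were. At chr13:86453023-86453361 the pileup was 247 tags in WT and 276 in KO, a ratio of 0.929 rpm, with folds of 38.4 and 38.7. At chr15:4618198-4618535 it was 217 and 226 tags (ratio 0.866), and at chrX:112691112-112691438 it was 155 and 151 tags (0.810). At chrX:60379585-60379947 (159 and 224 tags) and chr12:50352117-50352440 (155 and 202 tags) KO was higher, with ratios of 1.17 and 1.08. All 5 regions were called in all 8 acetylation lists, and the exact interval of each of these ratios held 1. Those intervals cover counting error only and take no account of the ceiling. The pileups of 247 and 217 tags in WT lay above d (198 bp) and below the ceiling of 396. Those of 276, 226 and 224 in KO lay above d (204 bp) and below the ceiling of 408. The part of the ceiling in these ratios was not tested. In untreated cells the pair with higher KO values after RA stood farther apart. H3K9ac was 5.83 rpm in WT and 43.2 in KO (ratio 7.42) on chromosome X. It was 11.3 and 41.6 (ratio 3.69) on chromosome 12. Those KO pileups, 312 and 300 tags, lie above d (212 bp) and below the ceiling of 424 in that library. The untreated ratios of the first 3 regions were 2.25, 1.40 and 1.05. The untreated ratios carry a fragment length in KO 1.37 times that in WT, against 1.03 times after RA.

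Shared regions at Sirt6 peaks were close to equal after RA and mostly higher in KO in untreated cells. The 179 such regions had a median KO to WT ratio of 0.966 after RA, with 10 regions at least 1.5-fold higher and 1 lower. Of these, 141 were called in both untreated H3K9ac lists, where the median ratio was 1.66 (quartiles 1.16 and 3.50), 78 were at least 1.5-fold higher in KO and 2 lower. At the 2103 shared regions without a Sirt6 peak the median was 0.925 after RA and 0.975 in the 1251 called in both untreated lists. After RA 39 of these were at least 1.5-fold higher and 138 lower, and in untreated cells 270 and 263. Divided by the ratio of fragment lengths as well, the medians were 0.937 after RA and 1.21 untreated at Sirt6 peaks, and 0.898 and 0.713 without one. H3K56ac at the Sirt6 regions had medians of 1.03 after RA (167 regions) and 1.63 untreated (167 regions), against 0.952 and 1.06 at the regions without a Sirt6 peak. With fragment length divided out, the H3K56ac medians at Sirt6 peaks were 0.942, so on the other side of 1, and 1.28. The regions at Sirt6 peaks were also stronger than the others. Their median H3K9ac level was 7.98 against 3.17 rpm in WT after RA, and 14.5 against 3.74 rpm in untreated KO. The part of level and of the pileup ceiling in these ratios was not tested. With 1 library in each group, the change from untreated to RA-treated cells was not tested.

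The ratio at Sirt6 peaks after RA differed with how widely a region was called. Among shared regions not called in all 8 lists, the 44 at Sirt6 peaks had a median ratio of 1.06 (quartiles 0.889 and 1.37), with 25 above 1, and the other 1244 a median of 0.912. Among shared regions called in all 8 lists the medians were 0.932 (135 at Sirt6 peaks) and 0.936 (859 others). Regions called in all 8 lists held few of the lower ratios. Of the 994, 16 were at least 1.5-fold higher and 18 lower, against 33 and 121 of the 1288 others. Sirt6 peaks lay at 10 of the 49 regions that were higher in KO (20.4%) and at 1 of the 139 that were lower (0.719%), beside 7.84% of all shared regions. That overlap differs with level, at 1.30% of shared regions between 1.75 and 2 rpm in KO and 11.6% at 2.5 or more, and the lower regions had a median KO level of 1.85 rpm against 3.22 for the higher ones.

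The regions farthest apart in pileup held few tags. Among shared regions with 1 peak in each list and at least 20 tags in 1 of them, the highest ratio was at chr8:23099536-23099876, with 16 tags in WT and 41 in KO (2.13; exact interval 1.17 to 4.07), at a Sirt6 peak. Untreated H3K9ac was called there in KO (10.4 rpm) and not in WT. The next were chr16:15059082-15059314 (10 and 23 tags; 1.91, 0.876 to 4.50) and chr16:12623371-12623690 (18 and 40 tags; 1.85, 1.04 to 3.43). They were followed by chr5:95229179-95229444 (15 and 33 tags; 1.83, 0.967 to 3.63) and chr6:114529984-114530329 (12 and 26 tags; 1.80, 0.878 to 3.92). Of these 5 intervals 3 held a ratio of 1, and the 5 were the extremes of 1966 regions, so counting error was large beside differences of this size.

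The lowest ratio was at chr1:10751886-10752124, with 29 tags in WT and 15 in KO (0.430; 0.214 to 0.829). The next were chr7:55670951-55671272 (41 and 22 tags; 0.446, 0.253 to 0.767) and chr10:49723795-49724102 (31 and 17 tags; 0.456, 0.237 to 0.850). After them came chr14:98761243-98761487 (32 and 18 tags; 0.468, 0.247 to 0.859) and chr17:17251992-17252241 (26 and 15 tags; 0.480, 0.236 to 0.940). None of these intervals held 1, and these regions too were the extremes of the 1966. H3K56ac after RA was called in both genotypes at 1 of these 5, the one on chromosome 7, where its ratio was 1.27 and so lay on the other side. At the regions on chromosomes 14 and 17, untreated H3K9ac was called in WT (5.31 and 3.63 rpm) and not in KO, and so was H3K56ac after RA (3.25 and 2.28 rpm in WT).

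Other libraries gave mixed values at the regions past 1.5-fold. Of the 49 higher regions, 34 were called in both RA-treated H3K56ac lists, with a median ratio of 1.16, and 10 of them were at least 1.5-fold higher and 0 lower. In untreated H3K9ac, 24 of the 49 had both calls, with a median of 1.62, 15 at least 1.5-fold higher and 3 lower. Of the 139 lower regions, 50 had both RA-treated H3K56ac calls, with a median of 0.935, 3 higher and 3 lower, and 58 had neither. In untreated H3K9ac 59 of the 139 had both calls, with a median of 0.664, and 30 were at least 1.5-fold lower. For the regions in between, the medians were 0.961 in RA-treated H3K56ac and 1.03 in untreated H3K9ac. Of all 1489 shared regions with both RA-treated H3K56ac calls, 98 were at least 1.5-fold higher and 125 lower. Of all 1392 with both untreated H3K9ac calls, 348 were higher and 265 lower by that limit. Of the 59 lower regions with both untreated calls, 16 were above 1 and 8 at least 1.5-fold higher in KO, so their direction was not uniform. The 58 without H3K56ac in either genotype compare with 397 of the 2282 shared regions.

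Peaks were somewhat longer in KO, and their summits lay at the same place. In the 2263 shared regions with 1 peak in each list the median length was 253 bp in WT and 268 bp in KO, with a median difference of 11 bp (quartiles 0 and 26). The KO peak was the longer in 1690 regions (74.7%), the WT peak in 536, and 37 were equal. The fragment length d, which is also the shortest length a peak had in each list, was 6 bp longer in KO. The KO library also held 1.20 times as many tags. The parts of d and of depth in the length difference were not tested. Peaks were longer at higher levels in both genotypes, with medians of 207 (WT) and 218 bp (KO) under 2 rpm and 321 and 332 bp at 10 or more.

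Summits lay a median of 16 bp apart (quartiles 6 and 34), with no side preferred. The KO summit was to the right in 1117 regions and to the left in 1093, with a median signed offset of 0. Within 50 bp were 1984 regions (87.7%), and 42 (1.86%) were more than 100 bp apart. The median distance was 25 bp under 2 rpm and 6 bp at 10 or more. The largest offset, 253 bp, was at chr18:88787582-88788077, a region of 14 tags in each library. At chr2:181652050-181652900 the KO summit lay 245 bp to the left within peaks of 827 and 849 bp. At chr11:3001089-3001447 the offset was 237 bp, over a background of 10.3 (WT) and 8.66 (KO) times the expectation.

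**Figure D4:**
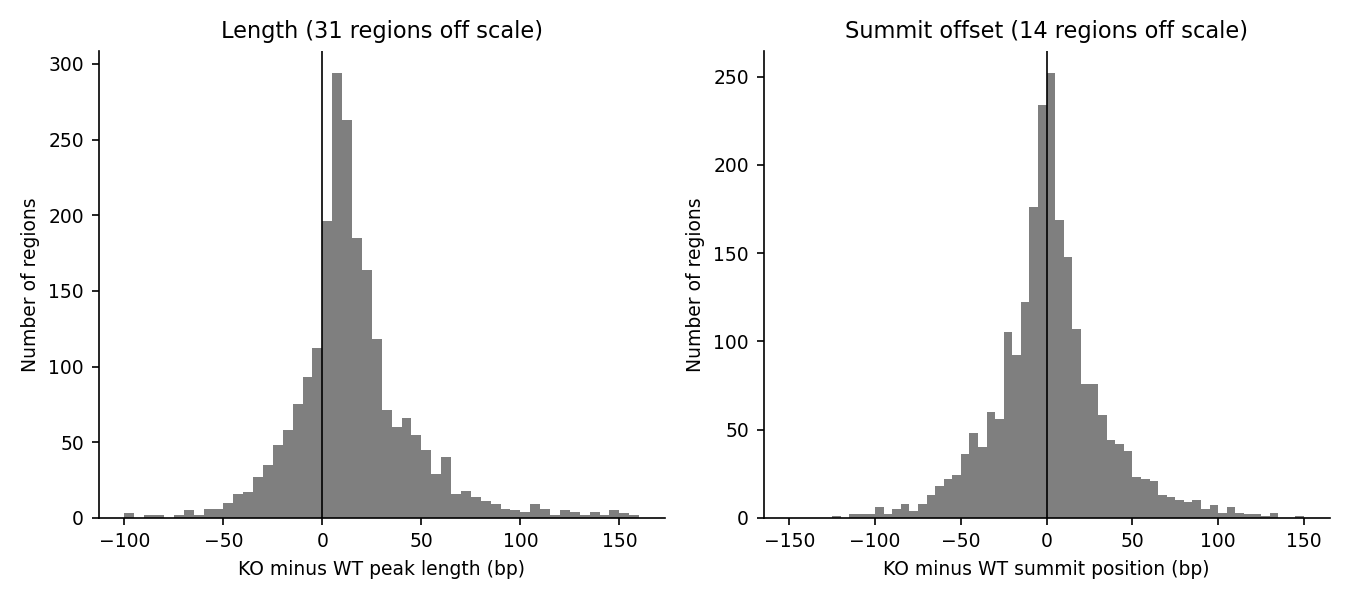
Left, KO minus WT peak length (bp) and right, KO minus WT summit position (bp), as numbers of regions in 5 bp bins, for the 2263 shared regions with 1 peak in each list; 31 and 14 regions lie off scale. The length differences centre at 11 bp and the summit offsets at 0.

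A few peaks differed in length by far more than the 2 values of d. In KO the peak at chr13:74666430-74667134 spanned 705 bp against 215 in WT, that at chr5:4052507-4053080 spanned 574 against 229, and that at chr5:37051998-37052793 spanned 796 against 472. The last had a ratio of 1.43 in pileup (28 and 48 tags), and its H3K56ac was also higher in KO, at 2.12 and 4.97 rpm after RA. In WT the longer peaks were chr2:181747448-181748087, with 626 bp against 407 in KO, chr18:88787582-88788077, with 406 against 238, and chr13:14949623-14950017, with 395 against 231. Merging and splitting were rare, since 13 shared regions held 2 WT peaks and 6 held 2 KO peaks.

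The regions were spread over all chromosomes, and 2 chromosomes differed between the genotypes in background. Over the shared regions of each autosome the median KO to WT ratio of recovered background was 0.885 on chromosome 8 and 0.872 on chromosome 14, and lay between 0.970 and 1.00 on the other 17. The median pileup ratio was lowest on the same chromosomes, at 0.893 and 0.886, beside 0.896 (chromosome 4) to 0.988 (chromosome 11) elsewhere. In the WT library the median background at peaks was 1.45 times the expectation on chromosome 8 and 1.64 on chromosome 14, against 1.14 to 1.31 on the others. In the KO library it was 1.17 and 1.23, within the range of 1.04 to 1.26 of the others. The raised background on both chromosomes was thus on the WT side.

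On chromosome 14 the difference lay in the distal part. Up to 80 Mb the background ratio was 0.976 in 55 shared regions. From 80 to 120 Mb it was 0.690, and below 0.98 in 41 of 41 shared regions, with a WT background of 2.40 and a KO background of 1.43. There the pileup ratio was 0.883 and the ratio of fold enrichment 1.17, so the 2 readouts lay on opposite sides of 1. Beyond 120 Mb there were only 4 shared regions, with a background ratio of 0.874. The region at chr14:98761243-98761487, among the 5 of lowest ratio, lies in this stretch, with backgrounds of 2.35 and 1.04. Leaving out chromosomes 8 and 14, an alternative added after the data were seen, gave a median pileup ratio of 0.930, with 2.11% of regions 1.5-fold higher and 6.18% lower, and 781 KO-only against 312 WT-only regions. The part of these backgrounds in the pileup ratios was not tested.

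**Figure D5:**
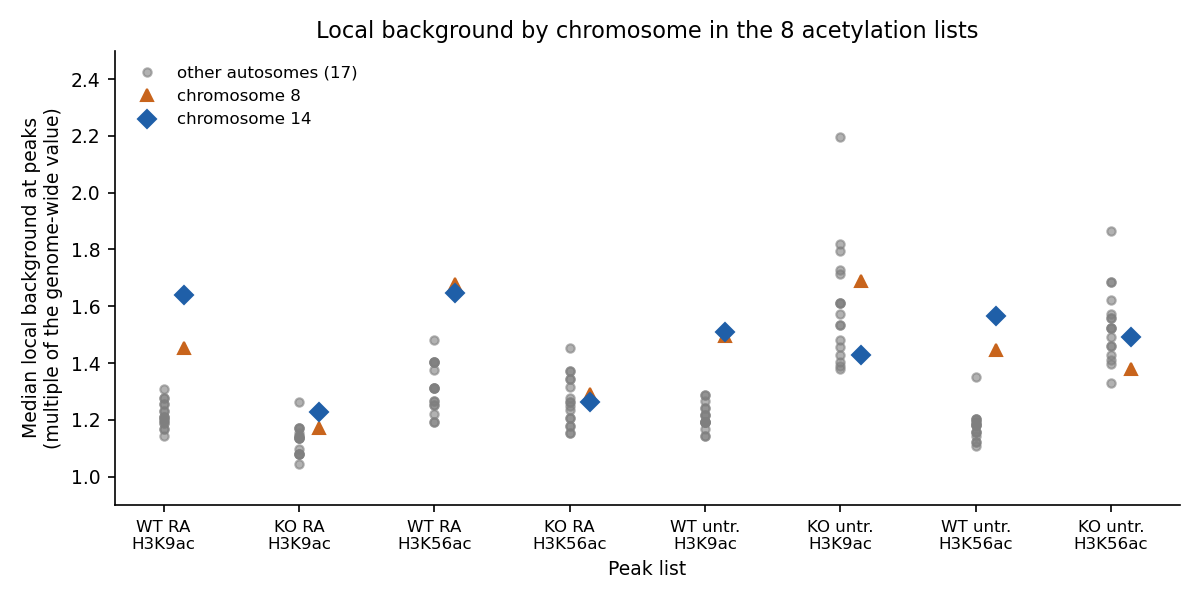
Median local background at peaks (vertical, multiple of the genome-wide expectation) on each autosome in the 8 acetylation lists (horizontal); grey points are the 17 other autosomes, the triangle chromosome 8 and the diamond chromosome 14. In the 4 WT lists both chromosomes lie above all others, at 1.45 and 1.64 in the RA-treated H3K9ac list, and in none of the 4 KO lists are they above all others.

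The other genotype pairs are given for scale. Of the merged H3K9ac regions after RA 65.7% were shared, against 62.3% for H3K56ac after RA, 38.0% for untreated H3K56ac and 31.9% for untreated H3K9ac. The quartiles of the pileup ratio were 0.813 and 1.08 here, 0.817 and 1.16 in H3K56ac after RA, 0.834 and 1.59 in untreated H3K56ac and 0.732 and 1.46 in untreated H3K9ac. Other measures had another order. The median pileup ratio of 0.929 was farther from 1 than in H3K56ac after RA (0.967) and untreated H3K9ac (1.01), and the share of KO regions also called in WT was 72.7% here and 73.6% in H3K56ac after RA. The ratio of fragment lengths, KO to WT, was nearest to 1 in this pair (1.03) and was 1.10, 1.28 and 1.37 in the others in that order. The part of fragment length in these orders was not tested.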

How the data were processed

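H3K9ac ChIP-seq peak lists of 1 WT and 1 Sirt6 KO library after RA were used, with 6 other acetylation lists and 1 Sirt6 list. The submitters' processing notes name BWA 0.5.9, Picard, MACS2 2.0.10 and mm9. Per the file headers, acetylation peaks were called per library with no control, a q limit of 0.01 and 1 tag per position. For each peak the authors deposited the pileup signal at the summit, the fold enrichment (a ratio over local background) and −log10 p and −log10 q.

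From these, peaks overlapping by 1 bp or more were merged, and pileup was scaled to 1000000 filtered tags (rpm). Where a region held several peaks of a list, that of highest pileup was used. Local background was recovered as (pileup + 1) divided by fold, minus 1. Shares carry Wilson and ratios exact 95% intervals. Merging and ratios were tested on simulated data. The members, lists and rules were chosen with earlier results of these data known. Named were the 5 regions of highest fold per class, the 5 highest and 5 lowest ratios with at least 20 tags in 1 list, and the 3 largest offsets and length differences; others are marked. Planned gene lists and markers were not applied, since the gene tables at hand are of another build. There were 0 unused columns of per-sample values. Computation ran in Python 3.11.15 with pandas 2.3.3, numpy 2.4.6 and scipy 1.17.1, and plotting in matplotlib 3.10.9.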

Additional observations from a re-analysis of the deposited data

How the results depend on the processing

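Of 70 alternative values, 53 stayed within the original's 95% interval or, for counts, within 1.5 times; among them the median fold enrichment ratio went from 1.00 to 0.999 without chromosomes 8 and 14. With a −log10 q of at least 10 there were 535 KO-only regions, 1.62 for each WT-only region, and 4.87% of shared regions were 1.5-fold lower in KO. Lists of equal length gave 466 and a ratio of 1.01, which their construction sets near 1. Dropping peaks under 2 rpm from both lists, added after the data were seen, gave 289 and 0.935, on the other side of 1. With this limit, and with that on −log10 q, shared regions with 1 of their 2 peaks under it then counted as called in 1 genotype. Scaling by tags times d gave a median pileup ratio of 0.901, with 1.49% higher and 8.06% lower, and scaling to a median of 1 gave 4.73% and 3.64%. At 2-fold the shares were 0.0438% and 0.438%. Without regions called in all 8 lists 9.39% were lower and summits lay 19 bp apart. Pileup over recovered background, also added later, had a median ratio of 0.943.

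Each genotype is 1 library, and no replicate was left out. No paired analysis was possible because each group holds 1 library. Without a control library, regions where tags pile up in any library stay in the lists. Depth limits single regions: shared regions had a median of 28 (WT) and 31 (KO) tags, and with 10 and 23 tags the exact interval of a ratio ran from 0.876 to 4.50. The absence of a call does not show the absence of the mark.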

Other observations

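The distal part of chromosome 14 had a higher background in all 4 WT acetylation lists than in any of the KO lists. At peaks from 80 to 120 Mb the median was 2.35 times the genome-wide expectation in WT H3K9ac after RA (45 peaks), 2.23 in untreated WT H3K9ac (54 peaks), 2.14 in untreated WT H3K56ac (45 peaks) and 2.63 in WT H3K56ac after RA (36 peaks). The KO lists had 1.24 (57 peaks), 1.09 (51 peaks), 1.27 (41 peaks) and 1.26 (47 peaks) in the same order. Up to 80 Mb the WT lists lay between 1.12 and 1.33, and the KO lists were at 1.10, 1.64, 1.54 and 1.26 in the same order. In KO H3K9ac after RA the distal part was thus slightly above the rest, at 1.24 against 1.10. Chromosomes 8 and 14 held the highest and second highest background of the 19 autosomes in every WT list, while in the KO lists their ranks ran from 2 to 18.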
